A study of Homo sapiens with 9 samples.

Results

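The 6 control libraries of an RNA sequencing study of C28/I2, a human chondrocyte line made by immortalisation, fell on opposite sides of a difference that the group labels do not name. Side A held Control 1, Scrambled 1 and Scrambled 3, and side B held Control 2, Control 3 and Scrambled 2. The sides were read from the counts of these same libraries, so every difference between them is a description and carries no test. The members were chosen by their measured levels in these 6 libraries: a gene was counted as carrying the split when its 3 libraries on 1 side all lay above the 3 of the other side and the mean log2 difference reached a fold of 1.5. Of the 60671 genes in each table, 19812 passed a filter on low counts, and 955 of those carried the split, 859 with the higher level on side A and 96 with the higher level on side B. These were 4.82%, 4.34% and 0.485% of the genes that passed the filter. The fold limit selected the members, and the counts describe what it selected.

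The study has 9 libraries, 3 in each group. The groups are labelled Control, Scrambled and CA2 shRNA, the last a knockdown by short hairpin RNA of CA2, a cytosolic carbonic anhydrase that interconverts carbon dioxide and bicarbonate. The labels describe neither the scrambled construct nor whether the Control cells were transduced, and they name 1 cell line for all groups and no time of harvest. Nothing says that replicates of a group were separate cultures, so any p-value reflects only how far these samples differ among themselves, and that variation may be technical. Total RNA was purified with RNeasy Mini columns and ribosomal RNA was removed with QIAGEN FastSelect. Library totals ran from 20715858 to 34261244 counts over the controls and from 16994368 to 27070048 over the CA2 shRNA libraries, and the totals of the sides overlapped (22352961 to 29605026 on side A). Levels are given as CPM, the read count relative to the library total, after TMM scaling, a correction of library size, and log2 differences are side A minus side B unless stated.

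Chondrocytes make the collagens and proteoglycans of cartilage. In most cells a long noncoding RNA such as NEAT1, the scaffold of paraspeckles, or MALAT1, a component of nuclear speckles, stays in the nucleus, whereas mature messenger RNA is exported and translated. Preparations of total RNA without selection for poly(A) tails hold both, together with unspliced precursors and transcripts of the mitochondrial genome.

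CA2 itself did not carry the split. Its level was 2.31, 1.82 and 2.06 CPM in Control 1, Scrambled 1 and Scrambled 3, and 2.00, 1.94 and 1.96 CPM in Control 2, Control 3 and Scrambled 2, a log2 difference of 0.06. The 3 CA2 shRNA libraries gave 1.398, 0.905 and 1.10 CPM, below all 6 controls. In edgeR's quasi-likelihood test the log2 change of CA2 shRNA against both controls was -0.82 ± 0.21 (SE), with an adjusted p of 0.008125 (0.05597 without CA2 shRNA 3). The cartilage markers summed to 161 to 175.9 CPM on side A and 168.9 to 176.6 CPM on side B, with COL9A1 at 0 counts in every library. Of the 24 cartilage markers in that sum, 15 passed the filter. Lists of markers of other cell types overlapped between the sides in their summed level: immune markers gave 6.09 to 6.68 CPM on side A and 4.17 to 6.93 CPM on side B, with MS4A1 at 0 counts, and endothelial markers gave 68.1 to 75.3 and 66.9 to 71.8 CPM. Epithelial markers gave 345.5 to 373.3 CPM on side A and 365.1 to 377.3 CPM on side B, and those of fibroblasts and osteoblasts gave 146.9 to 153 and 144.4 to 147.7 CPM, with DPT and IBSP at 0 counts. Sums follow the abundant members, and 3 markers carried the split at low levels, all higher on side A: SOX10 (neural, 1.31) at 0.195 to 0.977 CPM, CLDN5 (endothelial, 1.05) at 1.55 to 4.18 CPM and CLDN7 (epithelial, 0.63) at 0.923 to 2.04 CPM. They were 1 of 8 neural, 1 of 8 endothelial and 1 of 6 epithelial markers that passed the filter. No immune, adipocyte, muscle, fibroblast or osteoblast marker carried it. Of all genes under 5 CPM, 9.01% were higher on side A. The 5 immune markers that passed the filter had a median difference of 0.44, with none separate. The part of such cells in the split was not tested.

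The sides were apart on the first principal component of the control libraries, which held 35.5% of the variance of the 2000 most variable genes. Its scores were 13.3, 16.7 and 12.1 for Control 1, Scrambled 1 and Scrambled 3, against -14.0, -20.7 and -7.3 for Control 2, Control 3 and Scrambled 2. The libraries did not form tight, separate clusters. Over genes of at least 5 CPM, the standard deviation of the log2 difference between libraries was 0.126 to 0.184 for pairs on the same side and 0.160 to 0.274 for pairs across the sides, so the ranges overlapped. Control 2 lay 0.160 from Scrambled 3 and 0.165 from Control 1 on the other side, and 0.142 from Control 3 and 0.162 from Scrambled 2 on its own. The most distant pairs were Scrambled 1 with Scrambled 2 at 0.274 and Scrambled 1 with Control 3 at 0.272. With the CA2 shRNA libraries added, the first component held 28.1% and separated those libraries from the controls, and the sides were apart on the second component instead.

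**Figure D1:**
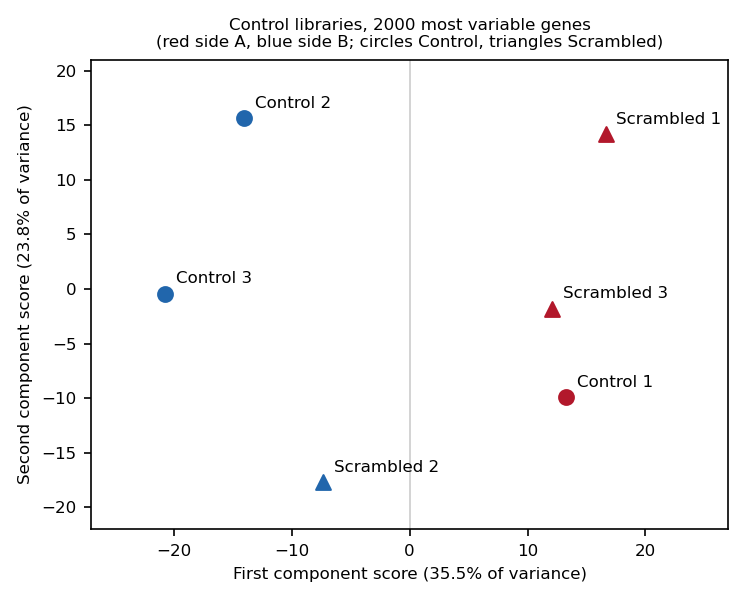
Scores of the 6 control libraries on the first (x axis) and second (y axis) principal components of log2 CPM, 1 point per library. Side A (red) has scores from 12.1 to 16.7 on the first component and side B (blue) from -20.7 to -7.3, and each side holds both Control (circles) and Scrambled (triangles) libraries.

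Among abundant genes that carried the split, the nuclear noncoding RNA NEAT1 gave the largest difference. NEAT1 (chromosome 11, 65422774 to 65445540, GRCh38, a noncoding gene of 1 exon) stood at 680, 618 and 645 CPM in Control 1, Scrambled 1 and Scrambled 3. It stood at 312, 159 and 233 CPM in Control 2, Control 3 and Scrambled 2. Every library of side A thus lay above every library of side B, with means of 648 ± 31.2 and 235 ± 76.7 CPM (SD, n = 3 each) and a log2 difference of 1.51.

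MALAT1 (chromosome 11, 65497688 to 65506516), the neighbour of NEAT1, followed the same order with a smaller difference. Its level was 1396, 1321 and 1415 CPM on side A and 986, 658 and 863 CPM on side B, a log2 difference of 0.74. MEG3, an imprinted long noncoding RNA, stood at 50.4, 62.0 and 51.3 CPM on side A and at 38.4, 27.5 and 29.2 CPM on side B (0.79). MIAT, at 4.92, 4.35 and 4.20 against 2.93, 2.64 and 2.40 CPM, differed by 0.74. For these 4 genes Control 2 was the highest library of side B. Of the 16 listed noncoding RNAs all passed the filter, these 4 carried the split, and 2 more, HOTAIR (0.32) and GAS5 (0.20), were higher on side A without overlap but below the fold limit. NORAD (-0.18), which resides mainly in the cytoplasm, and OIP5-AS1 (-0.25) were higher on side B without overlap, also below the limit. The median difference of the list was 0.20, beside -0.0036 over all genes that passed the filter.

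The snoRNA host genes, whose introns encode the small nucleolar RNAs that guide ribosomal RNA modification, leaned the same way. None of the 15 reached the fold limit, 7 were higher on side A without overlap and none on side B. Without the fold limit 13.9% of all genes were separate with side A higher and 14.2% with side B higher. SNHG17 gave 90.0, 86.7 and 80.0 CPM against 67.5, 53.8 and 57.7 CPM (0.52). SNHG3 (0.48) and SNHG12 (0.47) were the next of the list.

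Among abundant protein-coding genes, COL7A1 (chromosome 3, 48564073 to 48595267, minus strand, 113 exons), the collagen of anchoring fibrils, had the highest level of those that carried the split. It stood at 707, 772 and 697 CPM in Control 1, Scrambled 1 and Scrambled 3, and at 569, 395 and 409 CPM in Control 2, Control 3 and Scrambled 2, a log2 difference of 0.68. The sides did not overlap, and the CA2 shRNA libraries, at 573, 424 and 466 CPM, lay within or just above the range of side B. In the quintile of genes with the highest level, 60.8 CPM and above, 10 genes carried the split (0.252%), all higher on side A. Besides NEAT1, MALAT1 and COL7A1 they were PABPC1L, a relative of the cytoplasmic poly(A)-binding protein (0.79), GABRE and GABBR1, subunits of receptors for GABA (0.71 and 0.61), DDX39B, a helicase of splicing and mRNA export (0.64), LENG8 (0.61), DGCR8, which recognises microRNA precursors (0.60), and WDR90 (0.59). DDX39B gave 83.5, 93.8 and 85.4 CPM on side A and 67.1, 49.3 and 53.6 CPM on side B.

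The 15 protein-coding genes with the largest differences on side A, among members of at least 5 CPM, had log2 differences from 0.77 to 0.99. PAQR6 (chromosome 1, 156243320 to 156248117, minus strand), a membrane receptor of the progestin and adipoQ family, led them. Its level was 7.73, 7.46 and 6.90 CPM on side A and 4.24, 2.93 and 3.99 CPM on side B, from 87 to 204 reads per library. It was followed by SH3D21 (0.92), ELMO3, a partner of DOCK exchange factors in cell engulfment and motility (0.88), and IGFN1 (0.87). Next was DHPS, which makes the deoxyhypusine intermediate of the hypusine residue of translation factor eIF5A (0.81). FBXL8, an F-box protein of ubiquitin ligases, differed by 0.80, and TMC4, HSF4 (a heat shock transcription factor), SRPK3 (an SR protein kinase) and PABPC1L by 0.79 each. CRACR2B, ACTL10, EIF4A1 (an RNA helicase of translation initiation) and LTB4R (a leukotriene B4 receptor) differed by 0.78, and SLC35G6 by 0.77. ELMO3, FBXL8 and HSF4 lie close together on chromosome 16 between 67159932 and 67204029. Other genes that led side A were GAS6-AS1 (0.92), ENSG00000260793 (0.88), THBS1-IT1 (0.86) and ENSG00000286067 (0.86).

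Many of these leaders share sequence with other genes. EIF4A1 had 47.4% of its exon bases inside exons of another gene, DHPS 42.2%, HSF4 31.4% and FBXL8 26.9%, whereas ELMO3, TMC4 and PABPC1L had none. THBS1-IT1 and SLC35G6 lay 100% within introns of a protein-coding gene and ACTL10 94.0%. The strand setting of the counting is not given in the sources used here, so reads of overlapping genes, and reads of an antisense gene and its partner, cannot be told apart.

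Members higher on side B were fewer. Only 13 genes of at least 5 CPM qualified, 10 of them protein coding, which is 0.111% of the genes at that level beside 1.1% for side A. PCLAF (chromosome 15, 64364304 to 64387687, minus strand), a PCNA-binding factor of DNA replication, stood at 13.3, 9.64 and 12.99 CPM on side A and at 20.1, 25.6 and 22.3 CPM on side B (-0.92). TMED7 (chromosome 5, 115613210 to 115632992, minus strand), a p24 cargo receptor of the secretory pathway, stood at 43.1, 19.5 and 36.7 CPM on side A and at 58.5, 62.7 and 53.2 CPM on side B (-0.89). Scrambled 1 was the lowest control library for both genes, and for TMED7 it was about as low as CA2 shRNA 2 (17.7 CPM).

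IER3IP1, a protein of the endoplasmic reticulum, differed by -0.91, TPD52 by -0.77, SDHD, a membrane anchor of succinate dehydrogenase, by -0.75, and MICOS10, a subunit of the complex that shapes mitochondrial cristae, by -0.73. VAMP4, a SNARE of the trans-Golgi network, differed by -0.65, THAP5 by -0.61 and CRIPT by -0.59. SRSF1, a splicing factor of the SR family, gave 57.1, 30.2 and 50.3 CPM against 69.3, 72.8 and 62.9 CPM (-0.62). The other 3 were processed pseudogenes, RPL7AP50 (-1.54), RPL37P2 (-0.73) and PAIP1P2 (-0.70). Their reads may come from near-identical parent genes, since how multiply mapped reads were counted is not given in the sources used here. Of TMED7's exon bases 76.7% lay in an intron of another protein-coding gene, and PCLAF and SRSF1 shared 29.3% and 35.1% of theirs with other exons. The fold limit cut through a continuum. MRNIP and UCN2 lay just inside it on side A (0.59 each) and EGLN2 and ARHGAP33 just outside (0.58 each), while on side B CRIPT and THAP5 lay just inside and RAPGEF6 (-0.58) and POLR2M (-0.57) just outside.

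**Figure D2:**
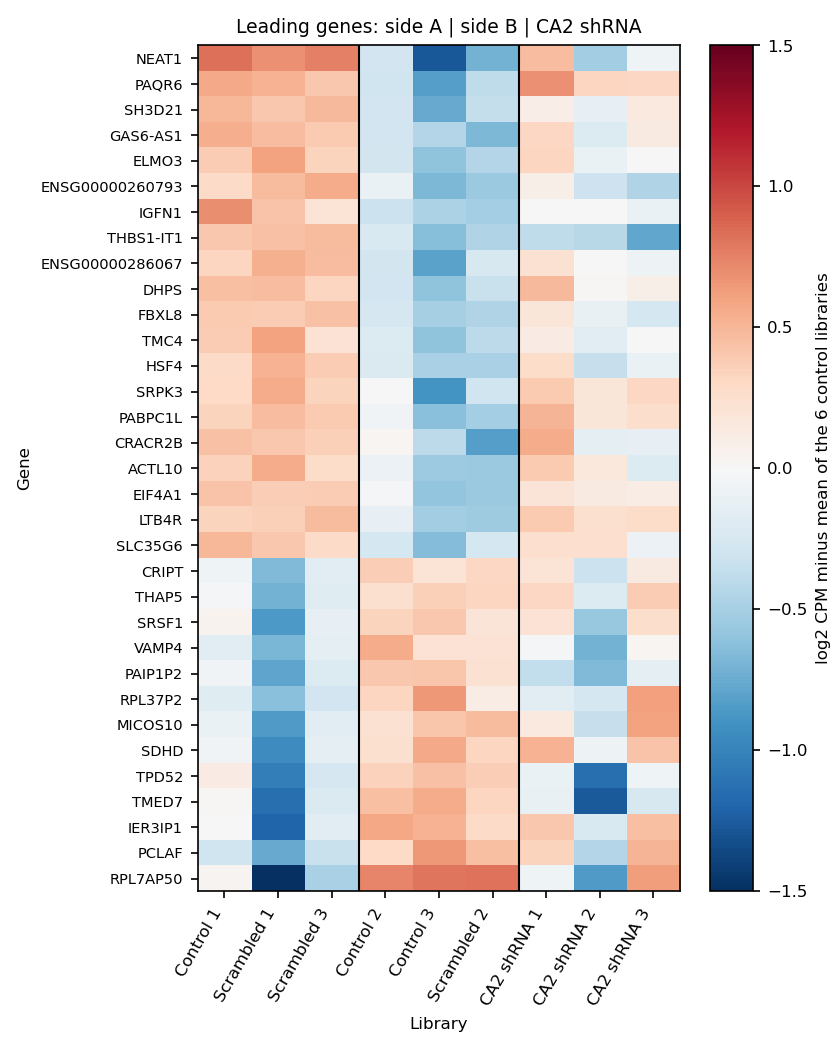
Log2 CPM of each leading gene (rows) in each of the 9 libraries (columns), as the difference from the mean of the 6 control libraries, with red above and blue below that mean. NEAT1 at the top has the widest range among the genes higher on side A, and in the genes higher on side B the column of Scrambled 1 is the darkest blue of side A.

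The members shared features that the rule did not use. By gene kind, 12.6% of the antisense and sense intronic or overlapping genes (231 of 1829) were higher on side A, as were 11.6% of small RNA genes (22 of 190), 10.9% of other long noncoding genes (164 of 1511) and 11.7% of genes absent from GENCODE 29 (35 of 299). Of pseudogenes 6.02% (114 of 1895) and of protein-coding genes 2.08% (293 of 14088) did so. Neither these shares nor those by length and overlap below were matched for level. Of all genes under 5 CPM 9.01% were higher on side A, and of those at or above it 1.1%. The shares higher on side B ran from 0.277% of protein-coding genes to 1.64% of pseudogenes. In the library totals, antisense and intronic genes took 0.601%, 0.585% and 0.601% of the counts of Control 1, Scrambled 1 and Scrambled 3, and 0.519%, 0.479% and 0.535% of those of Control 2, Control 3 and Scrambled 2. The sides did not overlap in this share. The CA2 shRNA libraries held 0.517%, 0.465% and 0.509%. Other long noncoding genes took 0.885% to 0.940% of the counts on side A and 0.688% to 0.779% on side B. This kind includes NEAT1 (mean 648 CPM on side A and 235 CPM on side B) and MALAT1 (1377 and 835 CPM). The difference in share is therefore partly that of these genes, described above. Protein-coding genes, those of the mitochondrial genome included, took 96.4% to 96.5% on side A and 96.7% to 96.8% on side B.

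**Figure D3:**
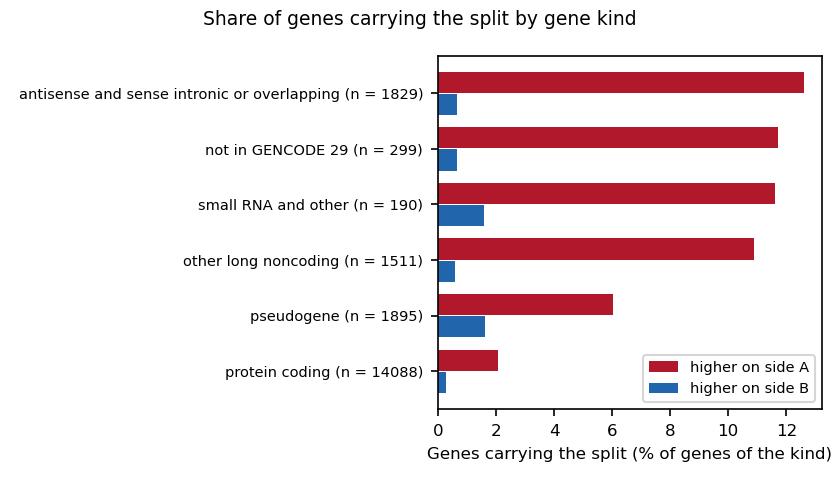
Percent of the genes of each kind (y axis, with the number of genes that passed the filter) that carried the split, for the direction of side A (red bars) and side B (blue bars). Antisense and intronic genes reach 12.6% and protein-coding genes 2.08% on side A, while no kind exceeds 1.64% on side B.

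Level and length went with membership. The median level of the members was 1.16 CPM on side A and 0.665 CPM on side B, beside 10.4 CPM over all genes that passed the filter, and 85% and 86.5% of the members lay under 5 CPM, where counting error is large. By quintiles of level, the share of genes higher on side A was 9.51%, 8.66%, 2.73%, 0.53% and 0.252% from lowest to highest. Among genes of at least 5 CPM and without the fold limit, 11.7% were separate with side A higher and 21.5% with side B higher. This balance held with DESeq2 size factors (9.92% and 24.9%) and library totals (13.1% and 18.7%) and turned with upper-quartile factors (15.9% and 13.6%), scalings run on these genes after the data were seen. By quintiles of exon length, the share higher on side A ran from 8.72% of the shortest genes to 1.34% of the longest. Within protein-coding genes, it ran from 5.07% in the quintile with the shortest 3' untranslated regions to 0.391% in the quintile with the longest. The share was 13.9% of genes with at least 50% of their exon bases in exons of other genes, against 3.78% of genes with none. It was 9.19% of genes with at least 50% in an intron of a protein-coding gene, against 2.87% of genes with none.

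GC content of the transcripts differed between the directions. The median was 55.5% for members higher on side A, 41.9% for those higher on side B and 49.6% over all genes, and 59.9%, 41.4% and 49.9% for the protein-coding ones. Across 19504 genes with a GC value, the difference between the sides had a Pearson r of 0.33 and a Spearman rho of 0.41 with GC content. This is a correlation across genes of the same libraries, and genes are not independent replicates. Among protein-coding genes of at least 5 CPM, members higher on side A numbered 0, 0, 5, 20 and 54 in the quintiles from lowest to highest GC, and those higher on side B numbered 8, 1, 1, 0 and 0.

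The libraries of 1 side did not share this relation to the same degree. In the quintile of lowest GC, the median gene of Scrambled 1 lay 0.19 log2 below the control mean (-0.19), whereas Control 1 and Scrambled 3 lay at -0.01 each. Scrambled 2, Control 3 and Control 2 lay at 0.11, 0.07 and 0.04 in that quintile. In the quintile of highest GC, Scrambled 1 was at 0.10, Control 1 at 0.04 and Scrambled 3 at 0.02, against 0.01, -0.05 and -0.08 for Control 2, Control 3 and Scrambled 2. The side A libraries other than Scrambled 1 thus deviated little with GC. With the log2 values adjusted for GC content within each library, an alternative added after the data were seen, 635 genes were higher on side A and 85 on side B, among them 579 and 68 of the members, and the first component still set the sides apart with 34.6% of the variance.

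**Figure D4:**
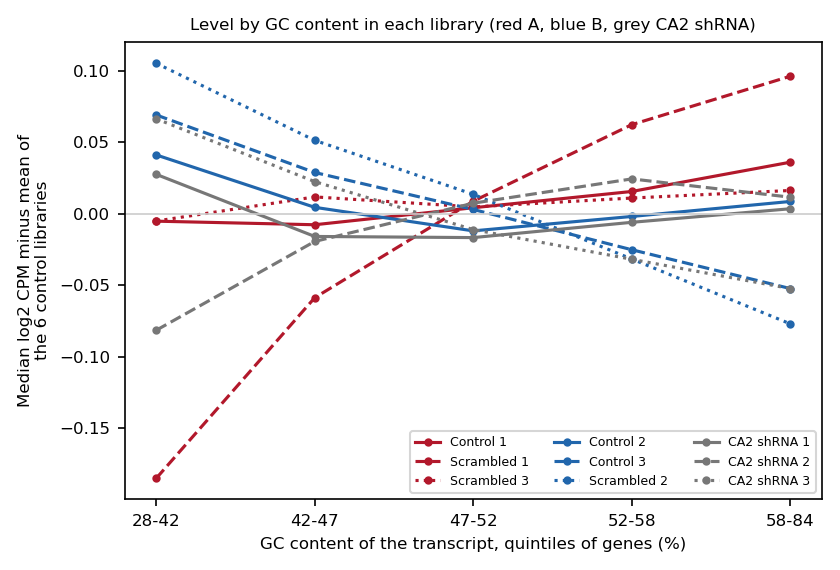
Median over genes of log2 CPM minus the mean of the 6 control libraries (y axis) in quintiles of genes by transcript GC content (x axis), 1 line per library. Scrambled 1 runs from -0.19 to 0.10 and Scrambled 2 from 0.11 to -0.08, while Control 1 and Scrambled 3 stay within 0.04 of 0.

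Gene lists showed where the smaller differences lay. The protein-coding and ribosomal RNA genes of the mitochondrial genome, which serve the respiratory chain, had a median difference of 0.44 over 15 genes, of which 5 (33.3%, beside 13.9% of all genes) were separate with side A higher and none reached the fold limit. Of all 23 mitochondrial genes that passed the filter 1 carried the split, the transfer RNA gene MT-TH (0.69) at 0.292 CPM. MT-CO1, a cytochrome c oxidase subunit, stood at 11148, 11547 and 12705 CPM on side A and at 10930, 7079.5 and 7328 CPM on side B (0.51). Control 2 lay next to the libraries of side A, and the gap in this gene was between Control 2 and the other libraries of side B. All mitochondrial genes together took 5.97%, 6.25% and 6.87% of counts on side A, and 5.85%, 4.06% and 4.08% on side B.

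MT-RNR1 and MT-RNR2, the RNAs of the mitochondrial ribosome, did not follow the sides. Both are among the 15 listed mitochondrial genes. Ribosomal RNA was removed from these preparations, so their counts may be what the removal left rather than levels in the cells, which was not tested. MT-RNR2 stood at 101, 13.3 and 27.5 CPM in Control 1, Scrambled 1 and Scrambled 3, and at 11.5, 72.5 and 82.1 CPM in Control 2, Control 3 and Scrambled 2. It stood at 3.49, 38.9 and 70.5 CPM in the CA2 shRNA libraries. Control 1 on side A was the highest library and Control 2 on side B the lowest control library. MT-RNR1 was likewise high in Control 1, Control 3 and Scrambled 2, at 46.3, 36.3 and 50.1 CPM, and the other controls lay between 7.71 and 18.7 CPM.

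The nuclear-encoded subunits of oxidative phosphorylation went the other way from the mitochondrial transcripts. Of 74 genes, 1 carried the split (SDHD), 37 were separate with side B higher (50%, beside 21.5% of genes of at least 5 CPM) and 4 with side A higher, with a median difference of -0.11. NDUFC2 (complex I) stood at 10.8, 7.42 and 9.68 CPM on side A and at 13.6, 12.7 and 12.96 CPM on side B (-0.51), and ATP5PF (ATP synthase) differed by -0.48. The heat shock chaperones had 9 of 17 members separate with side B higher and none with side A higher (median -0.11). HSP90AA1 gave 1426, 1276 and 1321 CPM against 1434, 1464 and 1517 CPM (-0.14). Proteasome subunits had 12 of 31, cytosolic ribosomal proteins 17 of 77, S phase genes 11 of 28 and actin and focal adhesion genes 11 of 32 members separate with side B higher. Those are 38.7%, 22.1%, 39.3% and 34.4% of the lists, beside 14.2% of all genes and 21.5% of genes of at least 5 CPM, so the share of the ribosomal proteins was near that of genes at their level. Medians of these lists lay between -0.08 and -0.06, and none of their members reached the fold limit.

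These counts depended on the scaling. The median of all genes was -0.0036 with TMM, -0.0179 with DESeq2 size factors, 0.0347 with upper-quartile factors and 0.007 with library totals alone. The genes separate at any fold numbered 2757 with side A higher and 2822 with side B higher under TMM, 2490 and 3254 under DESeq2 size factors, 3444 and 1841 under upper-quartile factors, and 2971 and 2478 under library totals. Under upper-quartile factors 23 oxidative phosphorylation genes, 1 chaperone and 1 cytosolic ribosomal protein were separate with side B higher, and the medians of the mitochondrial, oxidative phosphorylation, chaperone, proteasome, ribosomal protein, S phase and actin lists kept their sign under the 4 scalings.

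The splicing factors and CDC-like kinases held separate members in both directions. Of 32 genes, 7 were separate in each direction (21.9%). With side A higher the share was 13.9% of all genes and 11.7% of genes of at least 5 CPM. With side B higher it was 14.2% and 21.5%, so the list was near genes of at least 5 CPM in that direction. The median of the list was -0.0037. The median changed sign under upper-quartile factors and library totals, where 11 were separate with side A higher and 5 and 6 with side B higher. CLK2, a kinase of SR proteins whose transcripts are known to retain introns in the nucleus, stood at 54.1, 60.7 and 58.5 CPM on side A and at 45.7, 38.3 and 40.5 CPM on side B (0.48). CLK3 (0.28), SRSF5 (0.27) and LUC7L3 (0.24) were also higher on side A, as was OGT (0.25), which is neither a splicing factor nor a CDC-like kinase. SRSF1 (-0.62), SRSF2 (-0.21) and SRSF3 (-0.13) were higher on side B.

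Among genes of cartilage and matrix, 1 of 29 collagens, 1 of 15 cartilage genes and 2 of 20 matrix-degrading enzymes and inhibitors carried the split, beside 4.82% of all genes. The collagen was COL7A1. Without the fold limit 4 collagens (13.8%) were separate with side A higher and 3 (10.3%) with side B higher. Of all genes 13.9% and 14.2% were, so neither share of the collagens exceeded that of all genes. Besides COL7A1, those higher on side A were COL11A2 (0.50), COL16A1 (0.46) and COL27A1 (0.46). On side B they were COL5A2 (-0.04), COL4A1 (-0.09) and COL4A6 (-0.11). The cartilage gene was MATN1, from 5 to 22 reads per library (1.16). The enzymes were MMP9 (0.62) and CTSK (0.61), at 1.02 to 2.75 CPM, while TIMP1 (-0.10), TIMP2 (-0.13), HTRA1 (-0.18) and MMP16 (-0.32) were separate with side B higher. Those 4 were 20% of the list, beside 14.2% of all genes and 21.5% of genes of at least 5 CPM. CA7, a carbonic anhydrase, carried the split at under 1 CPM (0.93). None of the 150 zinc finger genes of chromosome 19 that passed the filter and none of 52 replication-dependent histone genes reached the limit.

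**Figure D5:**
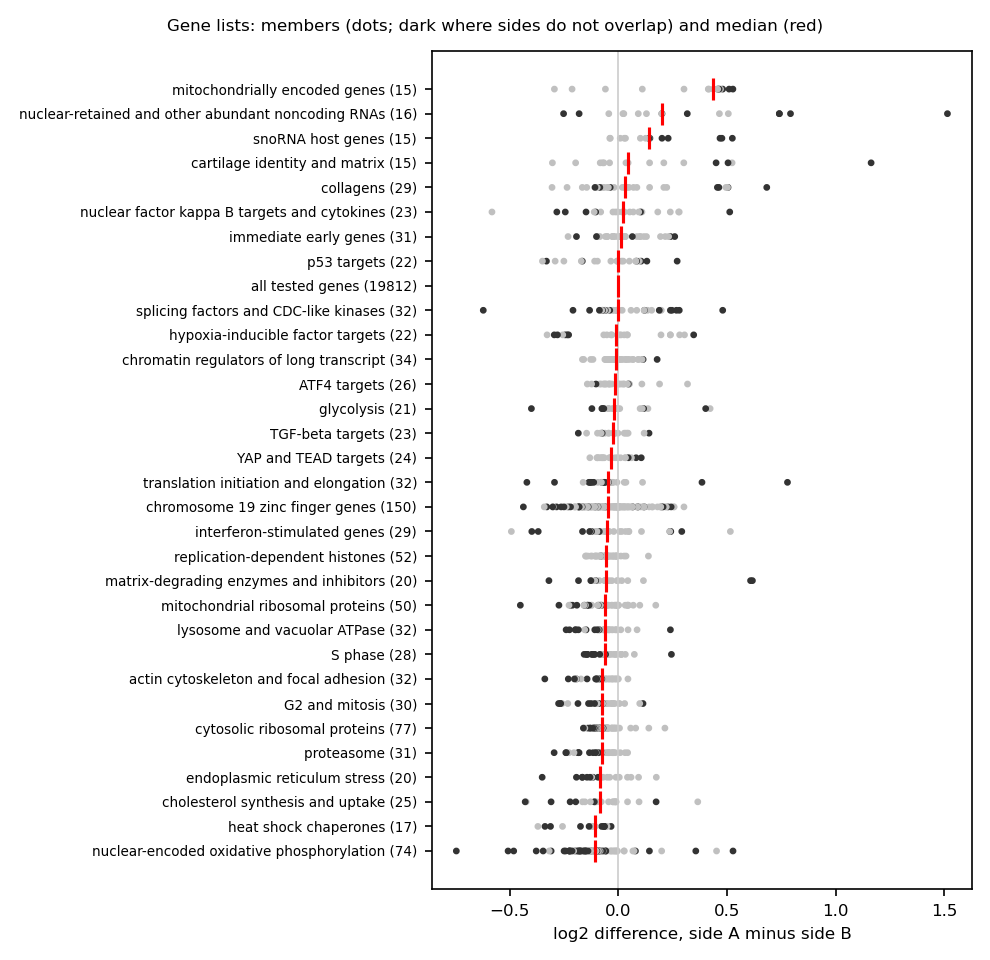
Log2 difference of side A minus side B (x axis) for the members of each gene list of at least 10 genes (y axis, number of genes that passed the filter), with dark dots where the sides do not overlap and a red bar at the median. Mitochondrially encoded genes have the highest median (0.44) and nuclear-encoded oxidative phosphorylation the lowest (-0.11).

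The difference appeared within each label. For members higher on side A, the median log2 difference was 0.78 between Control 1 and the mean of Control 2 and Control 3, and 0.75 between the mean of Scrambled 1 and Scrambled 3 and Scrambled 2. For members higher on side B the medians were -0.61 and -0.81. The rule fixes the sign of these values. Over all 19812 genes these differences had a Pearson r of 0.23, a description across genes of the same 6 libraries. The sides were read from these same counts, which favours a positive value. Individual libraries weighed unequally. Control 3 was the lowest library for 444 of the 859 members higher on side A, Scrambled 2 for 229 and Control 2 for 186. Scrambled 1 was the lowest for 69 of the 96 members higher on side B, Control 1 for 17 and Scrambled 3 for 10.

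The rule did not use the CA2 shRNA libraries and gave them no side. On the second component of all 9 libraries, CA2 shRNA 1, 2 and 3 scored 13.7, -5.61 and 0.93. Side A scored 7.71 to 13.8 there and side B -17.3 to -10.1. Of the members higher on side A, 60.3%, 37.8% and 44.6% were closer to the side A mean in CA2 shRNA 1, 2 and 3. Of those higher on side B, 55.2%, 74% and 35.4% were. Of the 859 members higher on side A, 556, 517 and 626 lay between the means of the sides in CA2 shRNA 1, 2 and 3, and of the 96 higher on side B, 50, 38 and 64 did. Relative to the control mean, the median member higher on side A was at 0.11 in CA2 shRNA 1, -0.12 in CA2 shRNA 2 and -0.05 in CA2 shRNA 3, beside -0.0020, -0.0154 and -0.0034 for all genes. CA2 shRNA 1 exceeded CA2 shRNA 2 in 593 of these 859 genes (69%, beside 47.9% of all genes) and CA2 shRNA 3 in 547 (63.7%, beside 49.9%). NEAT1 followed that order, with 527, 266 and 367 CPM. For members higher on side B, the medians were -0.04, -0.33 and 0.17, and CA2 shRNA 3 exceeded CA2 shRNA 2 in 73 of 96 (76%, beside 49.1%). CA2 shRNA 2 had the lowest median of the 3 for both kinds of member. Over all genes the differences between these libraries had a Pearson r with the split of 0.09 (CA2 shRNA 1 minus 2), 0.11 (1 minus 3) and -0.01 (3 minus 2).

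The members were chosen so that each label holds high and low libraries, which widens the spread within a label. Side A holds more Scrambled than Control libraries and side B the reverse, so the members also lean with the label. The median log2 change of Scrambled against Control was 0.28 for members higher on side A and -0.44 for those higher on side B. It was 0.0017 for all genes. Between Scrambled and Control, edgeR's quasi-likelihood test called 0 of 19812 genes in either direction (0%), with 550 genes at an unadjusted p under 0.05 (2.78%), and DESeq2 called 1. Of the members, 24 of 859 and 10 of 96 had an unadjusted p under 0.05. The adjusted p of NEAT1 in this comparison was 0.9997, with a log2 change of 0.38 ± 0.64 (SE).

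For CA2 shRNA against both controls the same test called 1933 rises (9.76%) and 2109 falls (10.6%). Of the 859 members higher on side A, 2 rose (0.233%) and 6 fell (0.698%), and of the 96 higher on side B, 2 rose and 1 fell. Spread among the controls enters this test, and the members were chosen for their spread among the controls. MMP9, a gelatinase, stood at 0.998, 1.09 and 1.28 CPM in the CA2 shRNA libraries, below the 1.41 to 2.75 CPM of the controls, and fell by 0.73 on the log2 scale (adjusted p = 0.03564). This call was lost without any 1 of Control 1, Scrambled 1, Scrambled 3 or the CA2 shRNA libraries (adjusted p 0.06056 to 0.1593), and its adjusted p was 0.004761 with the controls of side A alone and 0.2991 with those of side B alone. CD274, the immune checkpoint ligand PD-L1, rose from 0.489 to 1.11 CPM in the controls to 1.70, 1.75 and 1.72 CPM (1.29 ± 0.25, SE, adjusted p = 0.0009947), and it passed with any 1 library left out. SERPING1, an inhibitor of complement C1, fell by 1.45 (adjusted p = 0.01569), but missed the threshold when CA2 shRNA 1 (adjusted p = 0.05081) or CA2 shRNA 3 (adjusted p = 0.1395) was left out of the edgeR fit, when counts were thinned (adjusted p = 0.05586) and with the controls of side A alone (adjusted p = 0.1664). CD274 and SERPING1 are outside the naming rule and were chosen after their values were seen. With the controls of side A alone, 160 of the 859 members higher on side A and 9 of the 96 higher on side B were called. With the controls of side B alone, 122 and 11 were called. The fit with all controls called 8 and 3, and the choice of members by control levels favours the higher counts. Over all genes, rises numbered 2694 of 21260 and 1970 of 20945 in those fits, and falls 2020 and 2495. The called shares of the members were thus lower than those of all genes. The balance of rises and falls turned with the side used as control. It also turned with DESeq2 size factors in edgeR on all 9 libraries (2130 rises and 1937 falls).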

How the data were processed

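RNA sequencing of 9 libraries was analysed from the 9 deposited tables, 1 per library. The authors deposited, per the file headers, a whole-number read count, a CPM value and an RPKM value for each Ensembl gene. The deposited CPM and RPKM values were recomputed from the counts and differed by at most 4.7e-11 and 3.6e-11. They were not used further. Per the submitters' processing notes the tools were bcl2fastq, STAR 2.5.1a and featureCounts 1.4.6-p5 on GRCh38. Annotation release, strand setting and treatment of multiply mapped reads were not given in the sources used here.

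Genes were filtered with filterByExpr by group (19812 left) and scaled by TMM (factors 0.977 to 1.012) in edgeR 4.0.16 under R 4.3.3. Side differences are means of log2 CPM with a prior count of 2, described without a test. Labelled groups were tested with edgeR's robust quasi-likelihood F test on all 9 libraries (6 residual degrees of freedom), Benjamini-Hochberg adjusted over all genes at 0.05, with DESeq2 1.42.0 as an alternative. The biological coefficient of variation was 7.94%. The tests were also run on simulated data, with changes placed only in genes of at least 5 CPM and no split among the controls. That run does not cover genes under 5 CPM or the spread of the members. All pairs of libraries differed by more than sampling noise (lowest chi-square per gene 3.763), and none was treated as a duplicate.

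Symbols came from a reference table for 60401 genes and from GENCODE 29 for 246 more. GC content and untranslated lengths are those of the longest coding (or, without one, longest) transcript in GENCODE 29, and exon overlaps are from the exons in the deposited tables. The members and the 39 gene lists were chosen with earlier results of these data known. Named genes are CA2, the 15 protein-coding and 5 other members of at least 5 CPM with the largest difference in each direction, up to 4 members of each list by the same measure (2 by level where none qualified), and those next to the fold limit. Other genes named from the lists were chosen after their values were seen.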

Additional observations from a re-analysis of the deposited data

How the results depend on the processing

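The members were 859 and 96 with side A and side B higher, and the counts stayed within 1.5 times of these with DESeq2 size factors, upper-quartile factors, library totals, a prior count of 0.5 and thinning to the smallest total. They were 1589 and 492 with no filter, 118 and 19 at a fold of 2, 33 on side B with at least 1 CPM in 3 libraries, and 129 and 13 among genes of at least 5 CPM. Leaving out 1 control library gave 779 to 1292 and 100 to 213, the highest without Control 2 (1292) and without Control 1 (213), and fewer libraries on a side overlap less often. Thinned to equal totals, 63.3% and 46.9% of the members qualified again. The first component held 34.49% to 43.64% with 1 library left out, always with the sides apart, and 28.08% with all 9 libraries, where the sides were not apart. The alternatives of GC adjustment and of at least 5 CPM were added after the data were seen.

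Scrambled against Control gave 1 rise with DESeq2, 5 rises and 2 falls with no filter, 2 rises with the side as a term in a fit of the 6 controls, and 0 to 1 rises and 0 to 0 falls with 1 library left out (1 without Scrambled 2). Genes at an unadjusted p under 0.05 rose from 550 to 2039 without Scrambled 2 and to 1435 without Control 1. CA2 shRNA against both controls gave 1025 to 2823 rises, lowest without CA2 shRNA 2, and 1327 to 2387 falls, lowest without CA2 shRNA 1, and 1376 falls without CA2 shRNA 3. The same replicate number did not pair the libraries: deviations correlated at 0.344 for Control 1 with Scrambled 1, -0.108 for number 2 and -0.392 for number 3, and most strongly, at 0.643, for Control 3 with Scrambled 2. With the replicate number as a block, Scrambled against Control gave 0 rises and 0 falls, and CA2 shRNA against both controls 1989 and 2106, with 20 rather than 8 of the members higher on side A called. Of the side differences of named genes, 35 values moved by more than the spread on a side and 1580 did not, and no member's value changed sign. The rule fixes that sign when 1 library is left out, and the fold limit keeps it from turning under small shifts of scaling. Depth limits the members under 5 CPM, 85% and 86.5% of each direction.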
